A study of Mus musculus with 22 samples.

Results

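RNA of 34 genes that are typical of endothelial cells was followed through 19 libraries of mouse cardiac fibroblasts (CF) and 3 libraries of cardiomyocytes (CM). The genes were chosen by symbol, as markers and regulators of the endothelium, and each of the 34 was found among the 23359 genes of the deposited expression table. The mice were male, of wild-type genotype and C57BL/6 strain, with 10 to 14 weeks of age. The fibroblast groups were 4 day swim (n = 3), 10 day swim (n = 3), 3 day TAC (n = 3), 10 day TAC (n = 3), 5 day MI (n = 2), 3 day TAC sham (n = 2) and sedentary (n = 3), and the cardiomyocytes were from sedentary mice (n = 3). The labels give only the letters TAC and MI, taken here as transverse aortic constriction, a surgical pressure load, and myocardial infarction. No sham or sedentary group of day 10 and no sham group for MI was among the samples, so 10 day TAC, MI and swimming were set against sedentary mice.

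Endothelial cells line every vessel of the heart and hold together through junctions built on VE-cadherin. Their identity is kept by transcription factors of the ETS and SOXF families, and they sense angiopoietins, apelin, adrenomedullin and blood-borne lipids through receptors that other heart cells mostly lack. A fibroblast fraction prepared from heart can carry endothelial cells, and in bulk RNA fewer endothelial cells and less RNA per cell cannot be told apart. Some of the genes are also used elsewhere: Pecam1 by platelets and leukocytes, Cd93 by myeloid cells, Ly6c1 and its near-identical copy Ly6c2 by monocytes, and Fli1, Ets1 and Tal1 by blood cells.

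Every one of the 34 genes was above 0 in all 19 fibroblast libraries. Levels are FPKM, the authors' fragments per kilobase of transcript and per unit of mapped fragments. The sum over the 34 genes was 536 to 962 FPKM in 10 day TAC and 203 to 481 FPKM in the libraries of the other fibroblast groups. Ly6c1 alone, at 47.6 to 304 FPKM, made up a large part of these sums. The mean of log2(FPKM + 1), which weighs the genes more evenly, was 2.90 to 3.68 in 10 day TAC. It was 1.97 to 2.06 in 4 day swim and 2.44 to 2.76 in sedentary libraries, although the sum was 371 to 452 FPKM in 4 day swim and 305 to 344 FPKM in sedentary libraries. The group mean was highest in 10 day TAC for 25 genes, in sedentary for 5, in MI for 2, and in sham and 4 day swim for 1 each. It was lowest in 4 day swim for 16 genes, in sham for 10, in MI for 5 and in 3 day TAC for 3. Markers of both cell types followed the labels: all 10 fibroblast markers examined, Col1a1, Dcn and Pdgfra among them, were lower in cardiomyocytes than in sedentary fibroblasts, and all 10 cardiomyocyte markers were higher. Macrophage and leukocyte markers were nevertheless plentiful in the fibroblast fractions, at 504 to 1690 FPKM summed over 10 genes.

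**Figure D1:**
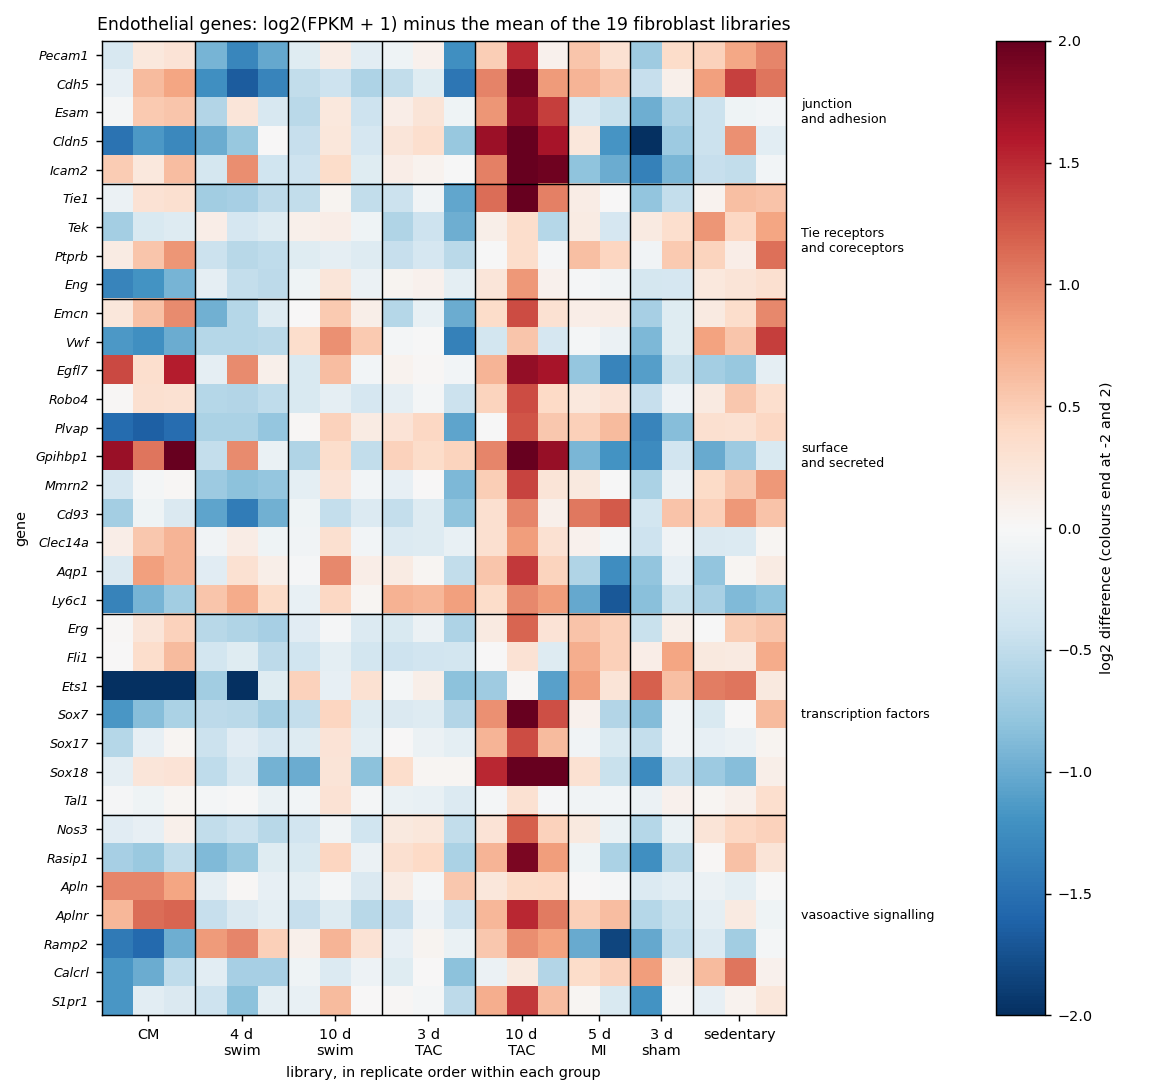
Heat map of 34 endothelial genes (down) in 22 libraries (across, by group), as log2(FPKM + 1) minus the mean of the 19 fibroblast libraries. Within 10 day TAC the second library is highest for 33 of the 34 genes, and 4 day swim is mostly blue apart from Ly6c1, Ramp2 and the second library's Egfl7, Icam2 and Gpihbp1.

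The endothelial genes moved together between replicates of a group, and 1 library often led. In 10 day TAC, replicate 2 was the highest of the 3 libraries for 33 of 34 genes, with a median of 1.87 times the mean of the other libraries of its group, against 1.06 times for all genes at 1 FPKM or more. Sham replicate 2 lay above sham replicate 1 for 32 genes (median ratio 1.88, against 1.05 for all genes). In 10 day swim, replicate 2 was highest for 31 genes (median ratio 1.53, against 0.972 for all genes). In 3 day TAC, replicate 3 was lowest for 26 genes, at a median of 0.63 times the others, against 1.04 times for all genes. The share of all genes highest or lowest in each library was not counted. The replicates of 4 day swim were the most even, each being highest for 10 to 14 genes.

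RNA of red blood cells moved with these replicates. In 7 of the 8 groups, cardiomyocytes included, the library with the most endothelial genes at their highest was also the one with the highest mean level of 6 red blood cell genes; 4 day swim was the exception. Hba-a1, an alpha globin, was at 1750, 3640 and 2040 FPKM in the 10 day TAC libraries, with the highest value in replicate 2. It was at 402 and 1220 FPKM in sham, where replicate 2 was again the higher. Between groups the median differences of red blood cell and endothelial genes had the same sign in 10 day against 3 day TAC (1.33 and 0.98), 10 day TAC against sedentary (2.24 and 0.51), 10 day swim against 10 day TAC (-1.11 and -0.75) and MI against sedentary (-3.05 and -0.33). The signs were also the same in sedentary cardiomyocytes against sedentary fibroblasts (-1.36 and -0.25). They were opposite in 4 day swim (4.19 and -0.80), 10 day swim (0.91 and -0.28) and sham (0.51 and -0.55) against sedentary. Opposite signs were also seen in 10 day against 4 day swim (-3.34 and 0.31) and 3 day TAC against sham (-0.04 and 0.15). Hba-a1 was at 6140 to 21000 FPKM in 4 day swim and 29.4 to 4200 FPKM in sedentary fibroblasts. The same library led in 7 of 8 groups for capillary and for arterial endothelial markers, in 6 for 27 other endothelial genes and for endocardial markers, in 4 for venous markers, in 3 each for lymphatic, fibroblast, pericyte and smooth muscle, and platelet markers, in 2 for cardiomyocyte and in 1 for macrophage and leukocyte markers. These groups hold only 2 or 3 libraries each, the comparison was made after the values were seen, and the part of red blood cell RNA in the endothelial values was not tested.

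Transcript length also split the fibroblast libraries by group. The slope of log2(FPKM + 1) on length, over all tested genes, was -0.928 to -0.547 per doubling of length in the TAC and swim libraries, against -0.31 to -0.181 in the MI, sham and sedentary libraries. Relative to long transcripts, short ones were thus higher in every TAC and swim library than in every MI, sham or sedentary one, and this property and the groups cannot be told apart. Total FPKM was likewise higher in every TAC and swim library than in every MI, sham or sedentary one. Rn45s, the precursor of ribosomal RNA, was at 911 to 6990 FPKM in the TAC libraries and 361 to 1810 FPKM in the swim libraries, against 120 and 1290 FPKM in MI, 146 and 183 FPKM in sham and 171 to 273 FPKM in sedentary libraries. The part of these properties in the endothelial values was not tested beyond removing the trend on length and GC content. Where 2 groups from different sets are compared below, the genes whose calls were lost with that trend removed are named. Comparisons of 10 day with 3 day TAC, of 10 day swim with 10 day TAC and of 10 day with 4 day swim lie within one set. Slopes differed within that set too, at -0.928 to -0.678 in 4 day swim and -0.665 to -0.547 in 10 day swim.

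The endothelial genes were higher at 10 days than at 3 days of TAC. Of the 32 genes that could be tested, 18 were higher and 0 lower in 10 day TAC, where 6.60% of all tested genes were called, 4.42% higher and 2.18% lower. Calls rest on limma with Benjamini-Hochberg adjustment over all tested genes and a threshold of 0.05 on the adjusted p, and differences are log2 fold changes of FPKM + 1. The median difference was 0.98 for the endothelial genes and -0.02 for all genes.

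Among junction genes, Cdh5, which encodes VE-cadherin, was at 13.5, 26.4 and 12.2 FPKM in 10 day TAC, against 4.21, 5.17 and 1.68 FPKM in 3 day TAC. The lowest 10 day library lay above the highest 3 day one, and the log2 difference was 1.98 (SE 0.295, adjusted p = 0.000614). Cldn5, the claudin of endothelial tight junctions, was at 53.8, 115 and 51.6 FPKM in 10 day TAC, against 18.8, 20.1 and 8.9 FPKM in 3 day TAC. The groups did not overlap (log2 difference 2.11, SE 0.50, adjusted p = 0.0176), but the call was lost without 10 day TAC replicate 2 (1.74, adjusted p = 0.0879) or without 3 day TAC replicate 3 (1.76, adjusted p = 0.0822). Icam2, a ligand of leukocyte integrins, and Esam, an adhesion molecule of tight junctions, were higher by 1.59 and 1.24. Pecam1 was at 11.9, 25.0 and 8.77 FPKM in 10 day TAC, against 7.67, 8.76 and 2.91 FPKM in 3 day TAC. Its groups only just parted, and its difference of 1.10 (SE 0.36, adjusted p = 0.0835) did not pass.

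Of the angiopoietin receptor genes, Tie1 was at 8.29, 17.2 and 7.60 FPKM in 10 day TAC, against 2.20, 3.10 and 1.10 FPKM in 3 day TAC. All 10 day libraries lay above all 3 day libraries (1.91, SE 0.27, adjusted p = 0.000407). Tek, the receptor that binds angiopoietins itself, was at 2.77, 3.42 and 1.33 FPKM in 10 day TAC, against 1.30, 1.62 and 0.76 FPKM in 3 day TAC. The groups overlapped and the difference of 0.62 did not pass (adjusted p = 0.111), nor did those of Ptprb, the phosphatase of the Tie receptors (0.55, adjusted p = 0.0966), and of Eng, a coreceptor for BMP and TGF-beta ligands (0.42, adjusted p = 0.212).

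All 3 SOXF factors, which drive arterial and lymphatic endothelial programmes, were higher. Sox18 was at 17.5, 38.8 and 26.6 FPKM in 10 day TAC, against 7.27, 5.63 and 5.66 FPKM in 3 day TAC, without overlap (1.93, SE 0.36, adjusted p = 0.00384). Sox7 was higher by 1.80 and Sox17 by 0.97. Sox17 passed the filter of 1 FPKM in 2 or more libraries through 10 day TAC, where it was at 1.98, 3.58 and 1.87 FPKM. Elsewhere only 10 day swim replicate 2 reached 1 FPKM (1.23), so the group where it was high admitted it to the test. Of the ETS factors, Erg was higher by 0.88, while Fli1 (0.40, adjusted p = 0.199) and Ets1 (-0.34, adjusted p = 0.707) did not pass. Ets1 is the ETS factor with wide use outside the endothelium.

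Among surface and secreted proteins, Egfl7, Emcn, Mmrn2, Cd93, Robo4 and Clec14a were higher by 0.71 to 1.35. Like Sox17, Clec14a passed the filter through 10 day TAC (1.01, 1.88 and 0.988 FPKM). Among the other fibroblast libraries only 10 day swim replicate 2 reached 1 FPKM (1.02). Mmrn2 is a matrix protein of vessels that binds Cd93 and Clec14a, and Robo4 is a receptor that steadies vessel walls. Gpihbp1, which carries lipoprotein lipase across capillary endothelium, was at 23.9, 57.8 and 41.4 FPKM in 10 day TAC, against 16.4, 15.3 and 16.3 FPKM in 3 day TAC. These groups did not overlap, yet the difference of 1.22 missed the threshold (SE 0.37, adjusted p = 0.0576). Ly6c1 stood at 200 to 304 FPKM in 10 day TAC and 248 to 275 FPKM in 3 day TAC (-0.01, adjusted p = 0.99).

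Of the signalling genes, the apelin receptor Aplnr was at 1.60, 3.67 and 2.38 FPKM in 10 day TAC, against 0.193, 0.531 and 0.23 FPKM in 3 day TAC. The groups were far apart and the difference was 1.40 (SE 0.17, adjusted p = 9.4e-05). S1pr1, the sphingosine 1-phosphate receptor, was higher by 1.10, and Ramp2, a subunit of the adrenomedullin receptor, by 0.84. Calcrl, the other subunit, did not pass (0.18, adjusted p = 0.749). Nos3, the endothelial nitric oxide synthase, did not pass either (0.67, adjusted p = 0.0756), and Apln, the apelin ligand, was too low to test.

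With the length and GC trend removed, 18 genes were again higher in 10 day TAC, 17 of them the same, with Ramp2 lost. Without 3 day TAC replicate 1 the count was 12, and without 10 day TAC replicate 2, or without 3 day TAC replicate 3, 10 genes remained higher: in both cases Cd93, Cldn5, Egfl7, Emcn, Erg, Mmrn2, Ramp2 and S1pr1 were lost. Other endothelial genes outside the 34 showed the same direction: 10 of 23 tested were higher and 0 lower, including the VEGF receptors Kdr (1.10) and Flt1 (0.86), as were 2 of 7 capillary markers (Car4 and Fabp4) and 2 of 5 arterial markers (Hey1 and Sema3g). Of venous, lymphatic and endocardial markers 1 of 3, 1 of 4 and 0 of 3 were higher and 0 lower. Some of these tested markers passed the filter of 1 FPKM through 10 day TAC. Sema3g (1.01, 1.33 and 1.12 FPKM) and Pcdh12 (1.31, 2.29 and 0.827 FPKM) reached 1 FPKM in no other fibroblast group. She, Hspa12b, Kank3 and the venous marker Darc reached it in only 1 fibroblast library outside 10 day TAC. Of 10 pericyte and smooth muscle markers 2 were higher and 0 lower. These were Rgs5 (16.4, 23.9 and 10.1 FPKM in 10 day TAC, against 5.74, 6.30 and 3.37 FPKM in 3 day TAC, adjusted p = 0.00805) and Notch3 (0.80). The counts called were 0 of 10 fibroblast, 0 of 10 macrophage and leukocyte and 0 of 8 cardiomyocyte markers. At an unadjusted p under 0.05 there were 6 higher and 1 lower pericyte and smooth muscle markers and 2 higher and 2 lower fibroblast markers. There were also 0 higher and 1 lower macrophage and leukocyte marker, and 3 higher and 0 lower cardiomyocyte markers. The share of all genes at an unadjusted p under 0.05 was not counted. Red blood cell RNA, summed over 6 genes, was at 3100 to 6240 FPKM in 10 day TAC, against 744 to 3320 FPKM in 3 day TAC. The median difference of its 5 tested genes was 1.33, with 0 called and 0 at an unadjusted p under 0.05, and its part in the endothelial values was not tested.

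**Figure D2:**
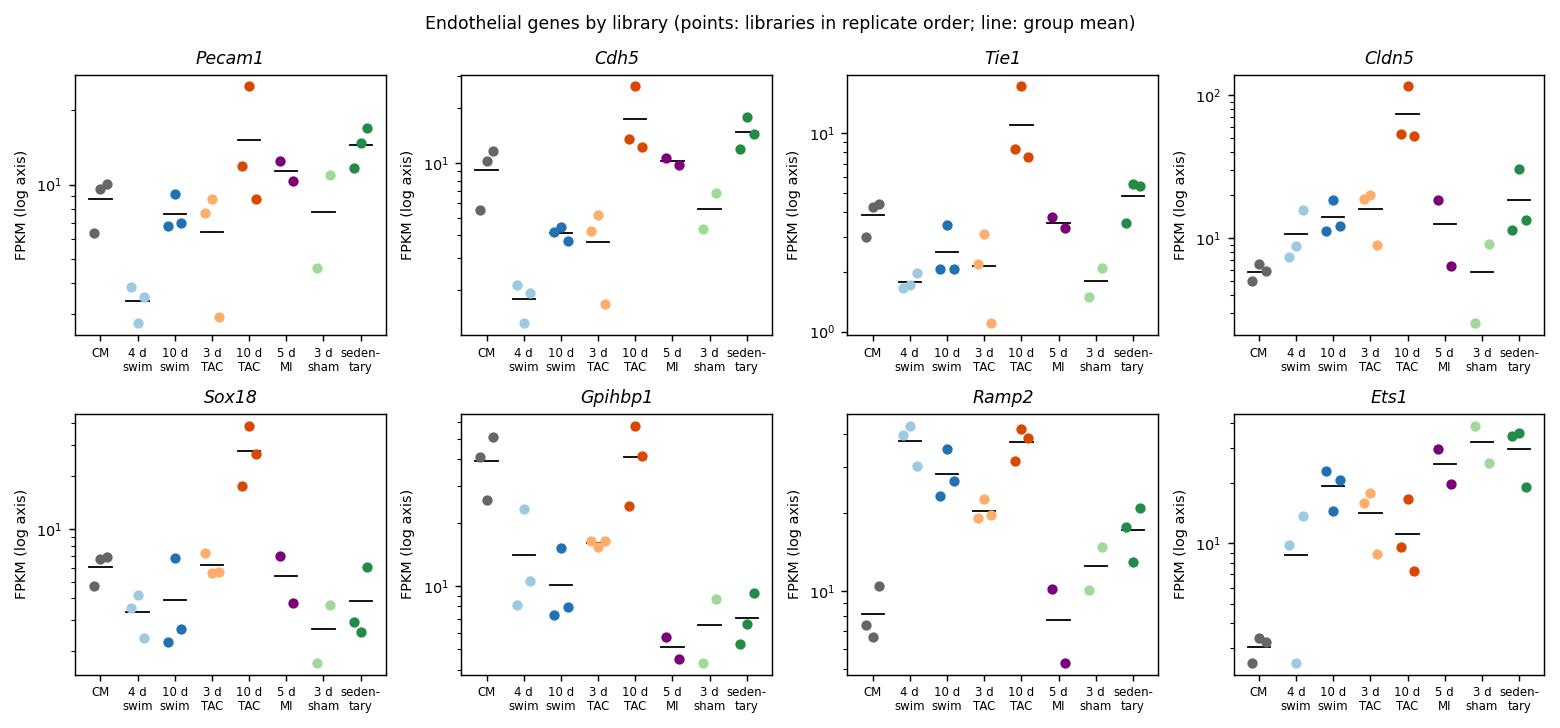
FPKM on a log axis in each library of 8 endothelial genes, by group, with the group mean as a line. Cdh5, Tie1, Cldn5 and Sox18 in 10 day TAC lie above all 3 day TAC libraries, and the group mean of Ets1 is lowest in cardiomyocytes.

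Promoters of genes that rose together between 3 and 10 days of TAC are shown for the 4 with the largest called difference among those held in the RefSeq promoter table (build GRCm38.p6, 250 bases before to 50 after the start). The table matched 15 of the 34 genes. Capitals mark the ETS core AGGAAG or its reverse complement CTTCCT.
Cldn5: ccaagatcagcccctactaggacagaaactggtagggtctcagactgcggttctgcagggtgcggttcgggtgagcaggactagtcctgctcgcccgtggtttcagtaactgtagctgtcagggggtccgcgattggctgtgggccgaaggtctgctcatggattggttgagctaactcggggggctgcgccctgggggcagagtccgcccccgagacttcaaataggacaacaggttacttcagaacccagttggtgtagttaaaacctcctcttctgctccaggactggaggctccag
Tie1: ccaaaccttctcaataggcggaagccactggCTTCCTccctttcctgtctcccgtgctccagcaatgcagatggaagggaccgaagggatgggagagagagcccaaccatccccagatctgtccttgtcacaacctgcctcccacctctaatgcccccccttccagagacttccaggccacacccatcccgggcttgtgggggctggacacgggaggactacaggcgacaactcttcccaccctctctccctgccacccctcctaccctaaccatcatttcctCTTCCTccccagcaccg
Egfl7: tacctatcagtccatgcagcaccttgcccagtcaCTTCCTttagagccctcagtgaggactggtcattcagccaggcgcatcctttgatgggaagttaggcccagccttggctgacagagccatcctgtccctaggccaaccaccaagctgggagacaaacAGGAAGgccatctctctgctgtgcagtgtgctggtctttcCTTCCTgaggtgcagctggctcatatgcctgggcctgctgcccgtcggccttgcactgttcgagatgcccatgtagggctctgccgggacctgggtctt
Emcn: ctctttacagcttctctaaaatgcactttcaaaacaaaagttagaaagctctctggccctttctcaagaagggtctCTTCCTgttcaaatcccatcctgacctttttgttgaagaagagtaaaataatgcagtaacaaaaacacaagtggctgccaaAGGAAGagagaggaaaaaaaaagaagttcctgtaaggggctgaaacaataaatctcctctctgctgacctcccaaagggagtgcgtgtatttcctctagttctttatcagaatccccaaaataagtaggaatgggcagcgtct

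The windows lie at chr16:18776597-18776896 on the plus strand (Cldn5), chr4:118489800-118490099 on the minus strand (Tie1), chr2:26580833-26581132 on the plus strand (Egfl7) and chr3:137340828-137341127 on the plus strand (Emcn). The ETS core was found on either strand in 9 of the 15 promoters (60.0%), against 35.1% of 27025 promoters in the table. It occurred 0 times in the window of Cldn5, 2 times in that of Tie1, 3 times in that of Egfl7 and 2 times in that of Emcn. The FOX and ETS composite AACAGGAA (TTCCTGTT on the other strand), which can overlap the ETS core, was in 3 of 15, those of Calcrl, Egfl7 and Emcn, against 2.58% of all. The SOX motif AACAAT, searched on both strands, was in 3 of 15, those of Calcrl, Emcn and Tek, against 10.9% of all. These matches describe letters only.

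After 10 days of swimming, another load on the heart at the same time point, the endothelial genes were lower than after 10 days of TAC. Of 32 tested, 17 were lower and 0 higher in 10 day swim, where 24.2% of all tested genes were called, 13.2% lower and 10.9% higher. This comparison shares the 10 day TAC libraries with the one before. Sox18 was at 2.27, 6.78 and 2.69 FPKM in 10 day swim, against 17.5, 38.8 and 26.6 FPKM in 10 day TAC, with no overlap (-2.59, SE 0.36, adjusted p = 0.000123). Cldn5 was at 11.2, 18.5 and 12.2 FPKM in 10 day swim, against 53.8, 115 and 51.6 FPKM in 10 day TAC, a difference of -2.25 (SE 0.50, adjusted p = 0.00518) without overlap. Gpihbp1 was at 7.32, 15.2 and 7.97 FPKM in 10 day swim, against 23.9, 57.8 and 41.4 FPKM in 10 day TAC. Again no swim library reached a TAC library (-1.89, SE 0.37, adjusted p = 0.00188).

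The other junction genes followed, with Cdh5 at 4.18, 4.45 and 3.74 FPKM in 10 day swim, against 13.5, 26.4 and 12.2 FPKM in 10 day TAC (-1.77, SE 0.295, adjusted p = 0.000579). Icam2 (-1.75) and Esam (-1.60) were lower as well. Pecam1 was at 6.78, 9.14 and 6.98 FPKM in 10 day swim, against 11.9, 25.0 and 8.77 FPKM in 10 day TAC, with overlap, and its difference of -0.79 did not pass (adjusted p = 0.115). Tie1 (-1.71), Sox7 (-1.52), Egfl7 (-1.27), Rasip1 (-1.13), Robo4 (-0.99), Sox17 (-0.94), Nos3 (-0.93), Cd93 (-0.74), Erg (-0.71) and Ly6c1 (-0.62) were lower too, and Aplnr, at 0.186, 0.38 and 0.12 FPKM in 10 day swim, against 1.60, 3.67 and 2.38 FPKM in 10 day TAC, completed the 17 (adjusted p = 1.53e-05). Rasip1 is needed for vessels to open a lumen. Sox17 was admitted to the test through 10 day TAC, the group where it was high. Ets1 (0.79, adjusted p = 0.192) and Vwf, the platelet-binding factor stored by endothelium (0.65, adjusted p = 0.15), had positive differences that did not pass.

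With the length and GC trend removed, 18 genes were lower, 15 of them among the 17, with Ly6c1 and Rasip1 lost. Outside the 34, 10 of 23 other endothelial genes were lower and 0 higher in 10 day swim than in 10 day TAC. Among the 23, Pcdh12, She, Hspa12b and Kank3 had passed the filter through 10 day TAC. Of other markers, 6 of 10 pericyte and smooth muscle markers were lower, and 7 of 10 fibroblast markers were higher and 2 lower in 10 day swim. The median difference of 5 red blood cell genes was -1.11, with 0 called and 0 at an unadjusted p under 0.05. The part of the mix of cells in the endothelial values was not tested.

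Against sedentary fibroblasts, 10 day TAC split the genes. Of 32, 16 were higher and 5 lower in 10 day TAC, against 65.7% called among all tested genes, 38.8% higher and 27.0% lower, so that calls were frequent in the whole table too. The median difference was 0.51 for the endothelial genes and 0.12 for all. Markers of other cells moved as well: 4 of 8 cardiomyocyte markers were higher and 0 lower, 6 of 10 pericyte and smooth muscle markers were higher and 2 lower, and 2 of 10 fibroblast markers were higher and 5 lower. The median difference of 5 red blood cell genes was 2.24, with 0 called and 0 at an unadjusted p under 0.05, and the part of these cells in the endothelial values was not tested. Pecam1 and Cdh5, junction genes much used to define the endothelium, were not among the endothelial genes called. Pecam1 was at 11.9, 25.0 and 8.77 FPKM in 10 day TAC, against 11.7, 14.7 and 17.0 FPKM in sedentary mice. Cdh5 was at 13.5, 26.4 and 12.2 FPKM in 10 day TAC, against 11.9, 17.9 and 14.4 FPKM in sedentary mice. For both genes the groups overlapped, with differences of -0.04 (SE 0.36, adjusted p = 0.924) and 0.16 (SE 0.295, adjusted p = 0.639).

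The largest called rises were in short transcripts. Sox18 was at 17.5, 38.8 and 26.6 FPKM in 10 day TAC, against 2.92, 2.58 and 6.06 FPKM in sedentary mice (2.56, SE 0.36, adjusted p = 1.63e-05). Gpihbp1 was at 23.9, 57.8 and 41.4 FPKM in 10 day TAC, against 5.31, 6.61 and 9.23 FPKM in sedentary mice (2.33, SE 0.37, adjusted p = 4.61e-05). Icam2 was at 12.5, 26.5 and 24.8 FPKM in 10 day TAC, against 3.87, 3.76 and 5.51 FPKM in sedentary mice (1.99, SE 0.33, adjusted p = 5.7e-05). None of these 3 genes overlapped between groups, and with the length and GC trend removed they were still higher, by 1.74, 1.80 and 1.25.

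The 5 genes called lower were Ets1, Vwf, Calcrl, Tek and Ptprb, all of them long. Ets1 was at 9.63, 16.7 and 7.26 FPKM in 10 day TAC, against 34.7, 35.7 and 19.1 FPKM in sedentary mice without overlap (-1.36, SE 0.45, adjusted p = 0.014). Vwf was at 2.03, 4.74 and 2.10 FPKM in 10 day TAC, against 5.81, 4.73 and 9.20 FPKM in sedentary mice, with a narrow overlap (-0.96, SE 0.33, adjusted p = 0.0167). Calcrl was at 2.99, 3.92 and 1.86 FPKM in 10 day TAC, against 5.68, 8.11 and 3.58 FPKM in sedentary mice, also with overlap (-0.77, SE 0.27, adjusted p = 0.0188). With the trend removed none of the 5 was called lower, the differences of Ets1 and Vwf being -0.80 (adjusted p = 0.102) and -0.67 (adjusted p = 0.0736), and that of Calcrl 0.09. Leaving out 10 day TAC replicate 3 also ended all 5 of these calls, and leaving out replicate 1 ended those of Vwf and Ptprb. Calls were also lost without a sedentary library: Ets1 without replicate 1 or 2, Vwf without replicate 3, Calcrl without replicate 2 and Ptprb without replicate 1 or 3. Ptprb was also not called with a pseudocount of 0.1, without the filter on low values or in a fit of the 2 groups alone. By the authors' q-values Calcrl, Ptprb and Tek were not called.

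The angiopoietin receptor genes had calls of opposite sign. Tie1 was higher in 10 day TAC than in sedentary mice (0.98, SE 0.27, adjusted p = 0.00466) and Tek lower (-0.73, SE 0.23, adjusted p = 0.0089), with transcripts of 4234 and 4654 bases. The difference between the 2 genes was not tested, and the call for Tek was lost with the trend removed. Sox7 (1.31), Sox17 (0.95), Aplnr (1.10), S1pr1 (0.87), Clec14a (0.66), Aqp1 (0.99), a water channel of capillaries, and Rasip1 (0.85) were the other rises in transcripts of 2000 bases or more. Rasip1 lost its call with the trend removed, with a pseudocount of 0.1, without the filter on low values, and without 10 day TAC replicate 2 or sedentary replicate 1 or 3. Aqp1 and S1pr1 lost theirs without 10 day TAC replicate 2 or sedentary replicate 1. Sox17 and Clec14a were admitted to the test through 10 day TAC, the group where they were high. Among the short genes, Cldn5 and Ramp2 lost their calls with the trend removed, which left 14 genes higher and 0 lower.

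**Figure D3:**
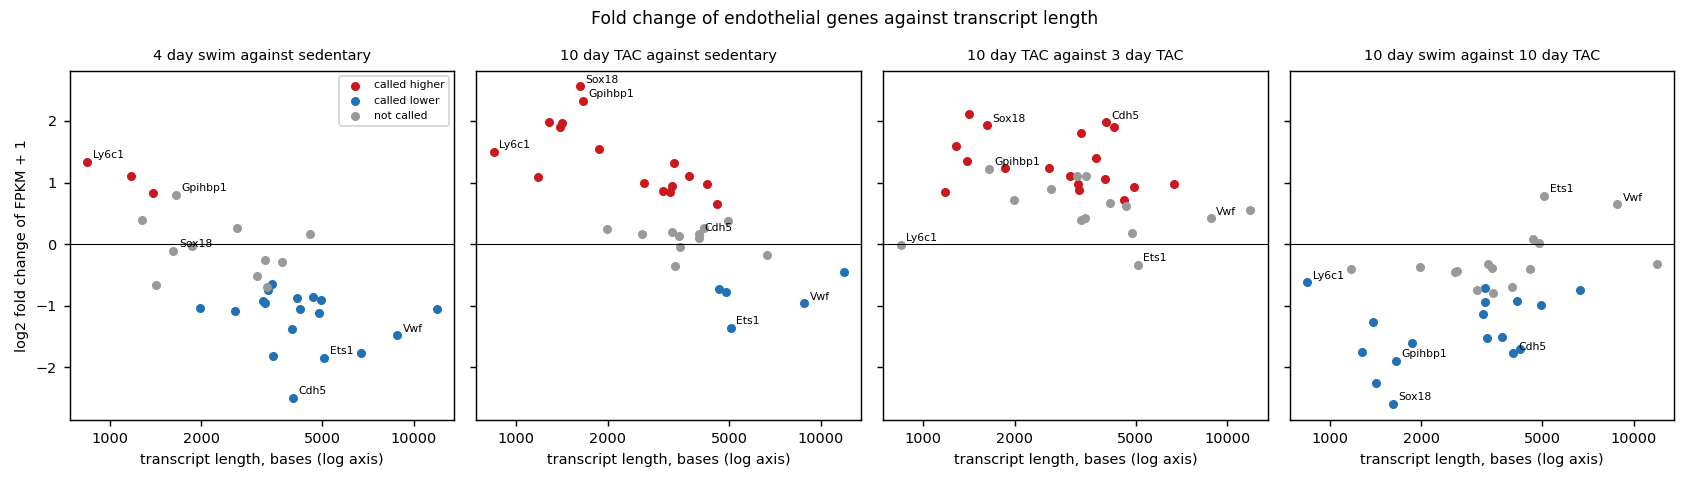
Log2 fold change of each tested endothelial gene against transcript length (log axis) in 4 comparisons, the first group named over the second; red and blue points were called higher and lower. In 4 day swim and in 10 day TAC against sedentary the folds fall with length, while in 10 day TAC against 3 day TAC 18 genes, short and long, are higher.

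After 4 days of swimming many endothelial genes were lower than in sedentary mice. Of 32, 18 were lower and 3 higher in 4 day swim than in sedentary mice, against 64.5% called among all tested genes, 26.3% lower and 38.2% higher, and the median difference was -0.80 for the endothelial genes and 0.13 for all. Cdh5 was at 2.12, 1.31 and 1.92 FPKM in 4 day swim, against 11.9, 17.9 and 14.4 FPKM in sedentary mice. No swim library came near a sedentary one, and the difference of -2.49 was the largest of the 32 (SE 0.295, adjusted p = 2.99e-06). Pecam1 was at 3.84, 2.74 and 3.51 FPKM in 4 day swim, against 11.7, 14.7 and 17.0 FPKM in sedentary mice, again fully apart (-1.82, SE 0.36, adjusted p = 0.000367).

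All 4 genes of the Tie and endoglin group were lower (Tie1 -1.05, Ptprb -1.05, Tek -0.85 and Eng -0.65), as were the ETS factors Ets1, Erg (-0.95) and Fli1 (-0.75), but Ptprb, Tek and Fli1 lost their calls with the trend removed. Ets1 was at 9.80, 2.53 and 13.8 FPKM in 4 day swim, against 34.7, 35.7 and 19.1 FPKM in sedentary mice, without overlap but with a wide spread (-1.85, SE 0.45, adjusted p = 0.00189). Of the surface and secreted group, Cd93 (-1.77), Vwf (-1.48), Mmrn2 (-1.37), Emcn (-1.09), Plvap, which forms the diaphragms of fenestrae and caveolae (-1.03), and Robo4 (-0.90) were lower. The SOXF factors did not pass: Sox7 -0.69 (adjusted p = 0.0619), Sox17 -0.25 (adjusted p = 0.206) and Sox18 -0.11 (adjusted p = 0.811).

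The 3 genes called higher have short transcripts. Ly6c1 was at 228, 261 and 203 FPKM in 4 day swim, against 98.7, 84.0 and 88.7 FPKM in sedentary mice (1.34, SE 0.21, adjusted p = 4.34e-05). Ramp2 was at 39.7, 43.1 and 30.2 FPKM in 4 day swim, against 17.6, 12.9 and 20.9 FPKM in sedentary mice (1.10, SE 0.24, adjusted p = 0.000803). Egfl7 was at 4.79, 11.6 and 6.07 FPKM in 4 day swim, against 3.10, 2.86 and 4.80 FPKM in sedentary mice, with a slight overlap (0.83, SE 0.33, adjusted p = 0.0342). Ramp2 and its partner Calcrl, whose products form 1 receptor, had called differences of opposite sign (Calcrl -1.11, SE 0.27, adjusted p = 0.0017), and their transcripts differ in length (1178 and 4882 bases). With the trend removed neither Ramp2 (0.10, adjusted p = 0.713), Ly6c1 (0.40, adjusted p = 0.0997), Egfl7 (-0.02) nor Calcrl was called, while Cdh5 (-2.16, adjusted p = 2.19e-05) and Pecam1 (-1.54, adjusted p = 0.00198) were, and 16 genes in all were lower and 1 higher. The call for Egfl7 was also lost without 4 day swim replicate 2 or sedentary replicate 1 or 2. The other endothelial genes went the same way, 14 of 23 being lower and 3 higher. Of 7 capillary markers 3 were lower and 0 higher, yet their median difference was 0.23. Markers of other cells moved too: 4 of 10 pericyte and smooth muscle markers were lower and 1 higher, and 3 of 8 cardiomyocyte markers were lower and 0 higher. Of 10 fibroblast markers 2 were lower and 2 higher, and 5 of 5 tested red blood cell genes were higher. The part of these cells in the endothelial values was not tested.

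After 10 days of swimming, 9 genes were lower and 2 higher than in sedentary mice, against 43.6% called among all tested genes, 13.6% lower and 30.0% higher. Cdh5 was at 4.18, 4.45 and 3.74 FPKM in 10 day swim, against 11.9, 17.9 and 14.4 FPKM in sedentary mice, without overlap (-1.60, SE 0.295, adjusted p = 0.000466), and it remained lower with the trend removed (-1.38, adjusted p = 0.00175). Cd93 was at 3.59, 2.53 and 3.06 FPKM in 10 day swim, against 5.79, 7.96 and 6.24 FPKM in sedentary mice (-0.91, SE 0.25, adjusted p = 0.00702). Calcrl was at 3.06, 2.57 and 3.03 FPKM in 10 day swim, against 5.68, 8.11 and 3.58 FPKM in sedentary mice (-0.75, SE 0.27, adjusted p = 0.0319). Neither gene overlapped between the groups. Ptprb (-0.78), Tie1 (-0.73), Fli1 (-0.69), Nos3 (-0.66), Tek (-0.64) and Robo4 (-0.62) were lower as well. Ly6c1, at 141, 208 and 160 FPKM in 10 day swim, against 98.7, 84.0 and 88.7 FPKM in sedentary mice, was higher (0.88, SE 0.21, adjusted p = 0.00322). Ramp2, at 23.1, 35.1 and 26.5 FPKM in 10 day swim, against 17.6, 12.9 and 20.9 FPKM in sedentary mice, was higher as well (0.69, SE 0.24, adjusted p = 0.0291), and both were apart between the groups. Pecam1 was at 6.78, 9.14 and 6.98 FPKM in 10 day swim, against 11.7, 14.7 and 17.0 FPKM in sedentary mice, and although the groups did not overlap its difference of -0.83 did not pass (adjusted p = 0.0723). With the trend removed only 1 gene was lower, Cdh5, and 1 higher, and the other 10 calls were lost; with all libraries scaled to 1 median, 13 were lower and 1 higher. Without 10 day swim replicate 3 the count was 6, without sedentary replicate 2 it was 7. The call for Ramp2 was lost without 10 day swim replicate 2 or 3 or sedentary replicate 1 or 2, and that for Calcrl without any 1 swim library or sedentary replicate 1 or 2.

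Between 10 and 4 days of swimming 0 endothelial genes were called by limma, against 0.318% of all tested genes, 0.0106% higher and 0.308% lower. At an unadjusted p under 0.05 there were 9 higher and 1 lower, but the share of all genes at that threshold was not counted. The median difference was 0.31, with Ets1 (1.28), Vwf (1.16), Pecam1 (0.98), Plvap (0.90) and Cdh5 (0.89) the largest. Long transcripts tended to larger differences here, among the endothelial genes (Spearman's rho 0.46) and among all genes (0.54). Cdh5 was at 4.18, 4.45 and 3.74 FPKM after 10 days, against 2.12, 1.31 and 1.92 FPKM after 4 days, and Pecam1 at 6.78, 9.14 and 6.98 FPKM after 10 days, against 3.84, 2.74 and 3.51 FPKM after 4 days. Both genes were apart between the groups, with adjusted p = 0.145 and 0.156. In the authors' deposited table, matched by condition name, the genes higher after 10 days at q under 0.05 numbered 9, Cdh5 (log2 1.18, q = 0.00611) and Pecam1 (log2 1.15, q = 0.00814) among them. The share of all genes at that q in the authors' table was not counted.

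TAC for 3 days gave, against sham of the same day, 9 higher and 4 lower genes, against 57.1% called among all tested genes, 31.3% higher and 25.8% lower. Cdh5 was at 4.21, 5.17 and 1.68 FPKM in 3 day TAC, against 4.31 and 6.84 FPKM in sham. Pecam1 was at 7.67, 8.76 and 2.91 FPKM in 3 day TAC, against 4.59 and 10.9 FPKM in sham. Both overlapped widely, with differences of -0.55 (adjusted p = 0.168) and -0.24 (adjusted p = 0.631). The rises were in Cldn5, Ly6c1, Gpihbp1, Icam2, Sox18, Plvap, Rasip1, Esam and Ramp2, of which all but Rasip1 have transcripts under 2000 bases, and the falls in Tek, Fli1, Calcrl and Ptprb.

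Ly6c1 was at 252, 248 and 275 FPKM in 3 day TAC, against 86.6 and 114 FPKM in sham, clearly apart (1.37, SE 0.24, adjusted p = 0.000139). Gpihbp1 was at 16.4, 15.3 and 16.3 FPKM in 3 day TAC, against 4.32 and 8.66 FPKM in sham, also apart (1.24, SE 0.41, adjusted p = 0.0164), with the call lost without sham replicate 1. Cldn5 was at 18.8, 20.1 and 8.9 FPKM in 3 day TAC, against 2.54 and 9.16 FPKM in sham, with overlap (1.42, SE 0.56, adjusted p = 0.0393), and lost its call without sham replicate 1 or 3 day TAC replicate 1 or 2. Calcrl was at 2.66, 3.32 and 1.44 FPKM in 3 day TAC, against 6.72 and 3.69 FPKM in sham (-0.83, SE 0.30, adjusted p = 0.0258), and lost its call without sham replicate 1 or 3 day TAC replicate 3.

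With the trend removed 2 genes were higher and 0 lower, and Ly6c1 was the only 1 of the 13 that kept its call (0.56, adjusted p = 0.0482). Scaling all libraries to 1 median gave 7 higher and 6 lower. The counts were 4 higher and 4 lower without 3 day TAC replicate 1, 4 higher and 5 lower without 3 day TAC replicate 2, and 1 higher and 4 lower without sham replicate 1, so that the larger number of rises rested on these libraries.

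Between sham and sedentary fibroblasts 0 of the 32 genes were called by limma, against 0.0212% of all tested genes, each of them higher. At an unadjusted p under 0.05 there were 0 higher and 15 lower, but the share of all genes at that threshold was not counted. The median difference was -0.55 for the endothelial genes and 0.09 for all. Cdh5 was at 4.31 and 6.84 FPKM in sham, against 11.9, 17.9 and 14.4 FPKM in sedentary mice, and Pecam1 at 4.59 and 10.9 FPKM in sham, against 11.7, 14.7 and 17.0 FPKM in sedentary mice. Neither gene overlapped between the groups, yet the differences of -1.27 (adjusted p = 0.258) and -0.90 (adjusted p = 0.703) did not pass. The authors' deposited table gave 10 of the genes as lower in sham at q under 0.05, Cdh5 among them (log2 -1.35, q = 0.0148). The share of all genes at that q in the authors' table was not counted.

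At 5 days after infarction 1 gene was lower and 0 higher than in sedentary mice, against 11.3% called among all tested genes, 2.34% lower and 8.93% higher. Ramp2 was at 10.2 and 5.31 FPKM in MI, against 17.6, 12.9 and 20.9 FPKM in sedentary mice, without overlap (-1.09, SE 0.27, adjusted p = 0.0138). Its call was lost, and the count was 0, without MI replicate 2 (adjusted p = 0.375) or without sedentary replicate 3 (adjusted p = 0.0503), and without sedentary replicate 2 the count was 3. Cdh5 was at 10.7 and 9.75 FPKM in MI, against 11.9, 17.9 and 14.4 FPKM in sedentary mice (-0.47, adjusted p = 0.424). Pecam1 was at 12.5 and 10.3 FPKM in MI, against 11.7, 14.7 and 17.0 FPKM in sedentary mice (-0.31, adjusted p = 0.702). The values of Cdh5 lay just below the sedentary ones and those of Pecam1 overlapped them. Cd93, at 9.18 and 10.4 FPKM in MI, against 5.79, 7.96 and 6.24 FPKM in sedentary mice, had the 2 highest values of all fibroblast libraries, but its difference of 0.50 did not pass (adjusted p = 0.289).

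**Figure D4:**
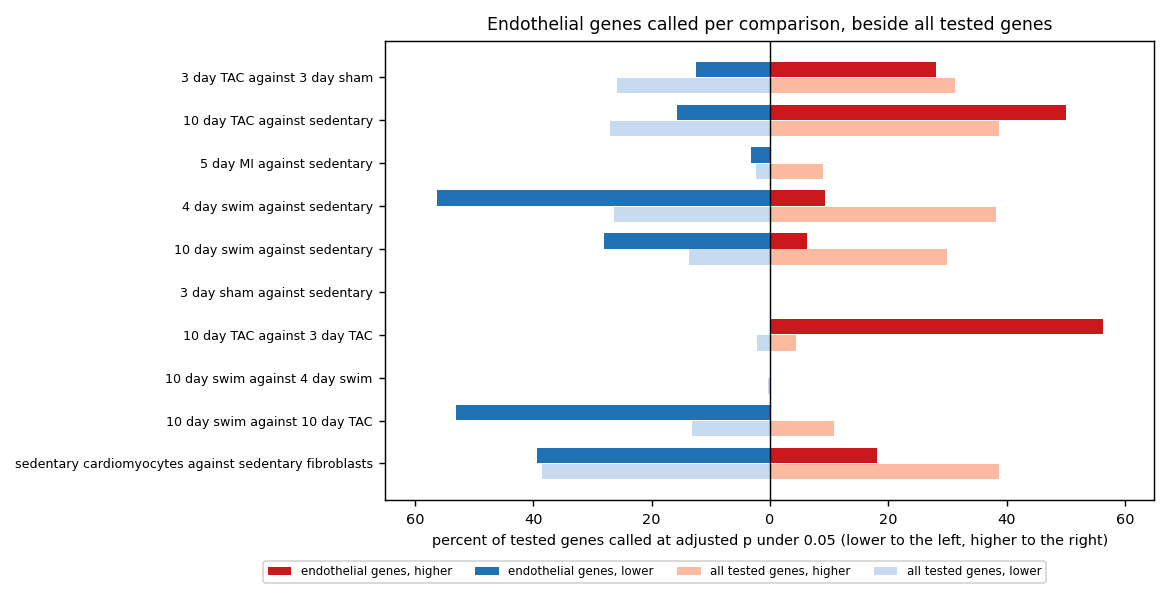
Percent of tested genes called higher (right) and lower (left) in each comparison, for the endothelial genes (dark bars) and all tested genes (pale bars). The dark and pale bars part most in 10 day TAC against 3 day TAC, where 18 of 32 endothelial genes and 4.42% of all genes are higher, and in 10 day swim against 10 day TAC and 4 day swim against sedentary on the lower side.

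Across the 32 genes the fold followed transcript length where the 2 sets of libraries were compared. Spearman's rho between fold and length was -0.79 in 3 day TAC against sham, -0.78 in 10 day TAC, -0.71 in 4 day swim and -0.76 in 10 day swim against sedentary, and -0.59, -0.54, -0.64 and -0.63 over all 9342 genes with a length. Within the TAC and swim set it was -0.38 in 10 day against 3 day TAC and 0.43 in 10 day swim against 10 day TAC, with 0.10 and 0.23 over all genes. It was 0.46 in 10 day against 4 day swim, with 0.54 over all genes, so the fold followed length within that set too. Within the other set it was 0.29 in MI and -0.03 in sham against sedentary, with -0.03 and 0.05 over all genes. Genes are not independent replicates, so these values are descriptions. Of the 9 genes under 2000 bases, 8 were higher and 0 lower in 10 day TAC than in sedentary mice, and of the 23 tested genes of 2000 bases or more 8 were higher and 5 lower. In 4 day swim against sedentary the counts were 3 higher and 1 lower among the short genes and 0 higher and 17 lower among the long ones. In 10 day against 3 day TAC 6 of 9 short and 12 of 23 long genes were higher. The share of all genes called in each length class was not counted, so these counts cannot be read as particular to endothelial genes.

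Sedentary cardiomyocyte libraries held endothelial RNA too. The 34 genes summed to 224 to 339 FPKM in cardiomyocytes and 305 to 344 FPKM in fibroblasts. A large part of these sums was Ly6c1, at 60.9, 80.9 and 95.4 FPKM in cardiomyocytes and 98.7, 84.0 and 88.7 FPKM in fibroblasts. The mean of log2(FPKM + 1) over the 34 genes was 2.05 to 2.49 in cardiomyocytes and 2.44 to 2.76 in fibroblasts. Of 33 genes tested, 6 were higher and 13 lower in cardiomyocytes, against 77.3% called among all tested genes, 38.7% higher and 38.6% lower. Pecam1 was at 6.39, 9.63 and 10.1 FPKM in cardiomyocytes, against 11.7, 14.7 and 17.0 FPKM in fibroblasts. Cdh5 was at 5.50, 10.3 and 11.6 FPKM in cardiomyocytes, against 11.9, 17.9 and 14.4 FPKM in fibroblasts. Both lay lower in every cardiomyocyte library, with differences that did not pass (-0.68, adjusted p = 0.0878, and -0.67, adjusted p = 0.0533).

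The higher genes were Gpihbp1, Egfl7, Apln, Aplnr, Icam2 and Clec14a. Gpihbp1 was at 41.0, 25.6 and 51.0 FPKM in cardiomyocytes, against 5.31, 6.61 and 9.23 FPKM in fibroblasts (2.30, SE 0.37, adjusted p = 1.53e-05). Egfl7 was at 15.4, 7.29 and 18.5 FPKM in cardiomyocytes, against 3.10, 2.86 and 4.80 FPKM in fibroblasts (1.62, SE 0.36, adjusted p = 0.000408). Icam2 was at 8.59, 6.78 and 9.28 FPKM in cardiomyocytes, against 3.87, 3.76 and 5.51 FPKM in fibroblasts (0.78, SE 0.31, adjusted p = 0.028). None of the 3 overlapped, but Icam2 lost its call with the trend removed (0.04) and without any 1 of 4 libraries, cardiomyocyte replicate 1 or 3 or fibroblast replicate 1 or 2. Both the ligand Apln (1.02, adjusted p = 7.61e-08) and its receptor Aplnr (1.01, adjusted p = 2.57e-05) were higher. Apln was at 1.53, 1.52 and 1.22 FPKM in cardiomyocytes, against 0.187, 0.129 and 0.279 FPKM in sedentary fibroblasts. Its highest fibroblast value in any group was 0.873 FPKM. It therefore passed the filter only through the cardiomyocytes, the group where it was high.

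The lower genes were led by Ets1, Vwf and Plvap. Ets1 was at 2.53, 3.36 and 3.22 FPKM in cardiomyocytes, against 34.7, 35.7 and 19.1 FPKM in fibroblasts (-2.89, SE 0.42, adjusted p = 5.32e-06). Vwf was at 0.771, 0.676 and 0.973 FPKM in cardiomyocytes, against 5.81, 4.73 and 9.20 FPKM in fibroblasts (-2.03, SE 0.31, adjusted p = 7.49e-06). Plvap was at 0.916, 0.798 and 0.938 FPKM in cardiomyocytes, against 5.93, 5.86 and 6.44 FPKM in fibroblasts (-1.91, SE 0.30, adjusted p = 1.13e-05). All 3 were far apart and stayed called with the trend removed (-2.40, -1.58 and -2.17). Calcrl, Eng, Cldn5, Tek, Sox7, Cd93, Ramp2, Rasip1, Mmrn2 and Nos3 were lower too, by -1.49 to -0.48. The slope on length was -0.776 to -0.684 in the cardiomyocyte libraries, against -0.31 to -0.181 in sedentary fibroblasts, and with the trend removed Cd93, Mmrn2, Nos3 and Rasip1 lost their calls.

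Marker lists of vessel types also differed between the cardiomyocyte and fibroblast libraries. The part of other cells, fibroblasts and macrophages among them, in these differences was not tested. All 7 capillary markers were higher in cardiomyocytes, among them Car4 (1.53), Tcf15 (1.58), Fabp4 (1.73), Cd36 (1.93) and Lpl (3.72), Cd36 and Lpl being made by cardiomyocytes as well. Of the others, 3 of 3 endocardial, 2 of 3 venous, 2 of 5 arterial and 4 of 5 lymphatic markers were lower, 0 of the arterial, venous and endocardial ones were higher, and 1 lymphatic marker, Prox1, was higher. Of 24 other endothelial genes 7 were higher and 7 lower. Summed fibroblast markers stood at 123 to 294 FPKM in cardiomyocytes and 2030 to 2620 FPKM in fibroblasts, and macrophage and leukocyte markers at 73.8 to 220 FPKM in cardiomyocytes and 504 to 708 FPKM in fibroblasts.

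**Figure D5:**
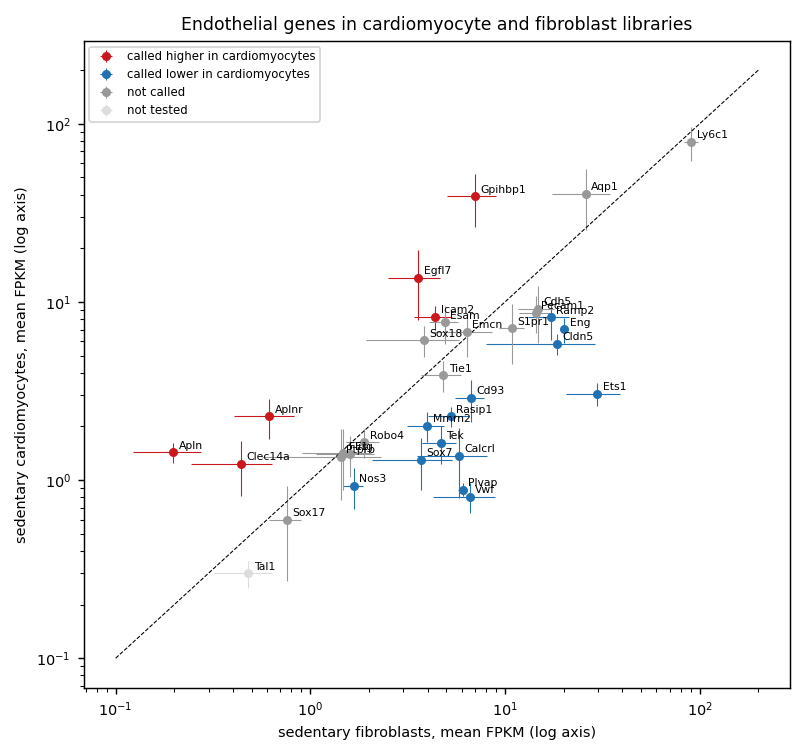
Mean FPKM of each endothelial gene in sedentary cardiomyocytes (up) and sedentary fibroblasts (across), both on log axes, with bars of 1 SD (n = 3 each) and a dashed line of equal level. Gpihbp1, Egfl7, Icam2, Aplnr, Apln and Clec14a lie above the line, and Ets1, Vwf and Plvap lie farthest below it.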

How the data were processed

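Poly-A RNA of 22 libraries, made with a stranded kit per the labels' protocols, was given as FPKM computed by the authors with Cufflinks 2.0.2 on mm10, per the submitters' processing notes. The aligner, the annotation and whether counting used strand were not stated in the labels or headers. Cuffdiff results deposited by the authors also hold log2 fold changes, p-values and q-values, matched to groups here by condition name. Confidence bounds in 44 columns were not used.

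The genes and marker lists were chosen with earlier results of these data known. Values were tested as log2(FPKM + 1) with limma 3.58.1 (trend and robust settings, R 4.3.3) on genes reaching 1 FPKM in 2 or more libraries: 9425 genes over 19 fibroblast libraries, and 10371 over all 22. Tal1 failed both filters and Apln the first. Sox17 and Clec14a passed the first through 10 day TAC, and Apln passed the second through the cardiomyocyte libraries. Their calls given above were kept without the filter on low values. P-values were adjusted by Benjamini-Hochberg over all genes tested. The added 1 shrinks folds of low genes. The labels do not say that libraries came from separate animals, so p-values reflect spread between libraries, which may be technical. Read counts were not given, so absolute depth is unknown; relative depth, read off the lowest steps in FPKM at 1112 weakly expressed genes, ranged from 1.0 to 3.57.

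Lengths and GC content of the longest protein-coding transcript came from GENCODE M21 and matched 22969 genes; the trend was removed with splines of 4 degrees of freedom per library. The script was tested on simulated data. Alternatives were a pseudocount of 0.1, no filter, scaling to 1 median, the trend removed, fits of the 2 groups alone, the authors' q-values, a replicate block and leaving out each library. All 34 genes could be named. Library values are given for Pecam1, Cdh5, the 3 largest called rises and falls per comparison at a mean of 5 FPKM or more in the higher group, and genes compared by role. Cd93 in MI, Hba-a1 and the comparison of replicates were singled out after their values were seen. Exons of Eng, Nos3, Rasip1 and Egfl7 overlap other genes, and Ly6c1 has a near-identical copy, so reads may be shared.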

Additional observations from a re-analysis of the deposited data

How the results depend on the processing

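Of 118 alternative counts of called genes, 100 lay within 1.5 times the reported one. The others, beside those from leaving out a library, were as follows. With the length and GC trend removed, 2 genes were called in 3 day TAC against sham, 3 in MI and 2 in 10 day swim against sedentary. MI gave 2 with scaling to 1 median, 0 in a fit of the 2 groups alone and 4 by the authors' deposited q-values. Without the filter, 10 day swim against sedentary gave 7. The authors' q-values gave 10 in sham against sedentary and 9 in 10 day against 4 day swim. For the authors' q-values the share of all genes was not counted. Leaving out 1 library gave 5 to 12 in 3 day TAC against sham, 16 to 20 in 10 day TAC against sedentary, 0 to 3 in MI, 19 to 22 in 4 day swim and 6 to 9 in 10 day swim against sedentary, 0 in sham against sedentary and in 10 day against 4 day swim for each library left out, 10 to 19 in 10 day against 3 day TAC, 12 to 19 in 10 day swim against 10 day TAC and 15 to 19 in cardiomyocytes. Where 1 library remained in an arm it was assumed to vary like the other groups. Scaling to 1 median moved the median of all genes most in MI, to -0.03 from 0.10.

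Of 597 alternative values of named genes, 513 kept direction and side of the threshold, 58 fell below it, 15 passed it and 11 changed sign. With the trend removed these were Calcrl in 3 day TAC against sham (0.07) and in 10 day TAC against sedentary (0.09), Pecam1 in 10 day TAC against sedentary (0.20) and Egfl7 in 4 day swim (-0.02). Pecam1 in 10 day TAC against sedentary was also 0.20 in the authors' table, and -0.45 to 0.26 when 1 library was left out, with positive values without 10 day TAC replicate 1 (0.06) or 3 (0.26) or sedentary replicate 3 (0.07). Pecam1 in 3 day TAC against sham was -0.79 to 0.31 when 1 library was left out, with 0.17 without 3 day TAC replicate 3 and 0.31 without sham replicate 2. Cdh5 in 10 day TAC against sedentary was -0.16 to 0.36, the lowest being without 10 day TAC replicate 2. Beyond what each alternative alters, the cause was not tested.

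Cardiomyocyte and sedentary fibroblast libraries share marks in their titles that do not state a shared animal. A replicate block in a fit of the 2 groups alone called 25 genes (9 higher, 16 lower), against 21 without the block. Deviations of libraries with the same mark correlated at 0.233, 0.065 and 0.314, and fibroblast replicate 2 correlated slightly better with cardiomyocyte replicate 1 (0.081) than with the library of its own mark.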

Other observations

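Selp, a platelet and endothelial adhesion receptor counted among the venous markers, differed more than any of the 34 genes in 4 day swim against sedentary fibroblasts, with a log2 difference of -4.60 (SE 0.61, adjusted p = 1.49e-05, limma). It was singled out after its values were seen. Hey1, a Notch target of arterial endothelium, was higher in 10 day than in 3 day TAC by 1.88 (SE 0.27, adjusted p = 0.000472) and lower in 10 day swim than in 10 day TAC by -1.71 (SE 0.27, adjusted p = 0.000379). Podxl, a sialomucin of the luminal face, followed with 1.36 (SE 0.28, adjusted p = 0.0068) and -1.39 (SE 0.28, adjusted p = 0.00246); the 2 comparisons share the 10 day TAC libraries.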
